A study of Mus musculus with 19 samples.

Results

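Some stretches of accessible chromatin in mouse squamous cell carcinoma lie far from any other. These isolated peaks are the autosomal ATAC-seq peaks whose nearest other peak on the same chromosome was more than 100 kb away, measured from edge to edge in the merged peak list. There were 1177 of them among 59603 autosomal peaks, or 61553 peaks with the sex chromosomes and the mitochondrial genome included. They were chosen by measured peak positions, so their gaps are given as a description and were not tested. The comparison is with the other 58426 autosomal peaks. Where all autosomal peaks or the background are named instead, the share is over all 59603, members included.

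Squamous cell carcinoma is a cancer of the stratified epithelium of the skin. The tumours SCC1 and SCC2 were grown in C57BL/6 skin as allografts, each started by an intradermal injection of 10000 cells, and their cells were sorted by the transferrin receptor CD71 and by retained H2BGFP, a histone label that dividing cells dilute. The labels name the merged list for 8 ATAC libraries of 50000 cells each, 1 per tumour of the proliferative (CD71hi H2BGFPlo), quiescent (CD71lo H2BGFPhi), double negative (CD71lo H2BGFPlo) and double positive (CD71hi H2BGFPhi) cells. Smad2/3 binding comes from 1 ChIP library of SCC1, and copy number from 1 input library of each tumour, made from 12000000 cells that had been treated in culture with 5 ng/mL TGFβ1 for 1 h in 50 uM calcium. Expression ratios come from RNA libraries of 100000 cells of the proliferative, quiescent and double negative populations of both tumours. The labels do not name this list for the 2 ATAC libraries of SCC3 Tgfbr2KO cells, and whether they contributed peaks to it is not stated.

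In ATAC-seq the Tn5 transposase cuts DNA where nucleosomes leave it open, and peaks mark promoters, enhancers and other regulatory DNA. Enhancers of an active locus tend to lie in groups, whereas gene deserts and the introns of very long genes, many of them neuronal adhesion genes, hold few open sites in epithelium. The TGF-β signal is carried from its receptors to DNA by Smad2 and Smad3, usually at sites that other factors have already opened. A promoter rich in CpG, the dinucleotide that vertebrate genomes have mostly lost, is typical of genes used in many cell types.

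The list holds positions only, with no signal and no link from a peak to a library. Whether an isolated peak was open in quiescent or in proliferative cells was therefore not analysed here, nor could a low signal in a given library be seen. The regions are not replicates of each other, and neighbouring regions share chromosome context. Shares are printed with exact 95% binomial (Clopper-Pearson) intervals, which cover counting error only, and no test between the isolated and other peaks was run.

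Isolated peaks at gene starts show what stood open in surroundings with no other listed peak, and the promoter windows of the 6 with the largest gaps are printed for that reason. Each is the RefSeq window of 300 bases on GRCm38.p6, from 250 before the gene start to 50 after it, written 5′ to 3′ with each CpG in capitals. Kdm4c, which encodes a histone lysine demethylase, has its window at chr4:74251629-74251928 on the plus strand, with 28 CpG. Its peak was 1026 kb from the next one. The zinc finger gene Zfp317 has a window at chr9:19621841-19622140 on the plus strand, with 16 CpG, in a peak with a gap of 754 kb. Smc2, a core subunit of condensin, which compacts chromosomes in mitosis, has its window at chr4:52438971-52439270 on the plus strand, with 21 CpG, and a gap of 572 kb. The F-box gene Fbxw17 has its window at chr13:50417614-50417913 on the plus strand, with 13 CpG, and a gap of 525 kb. The long non-coding RNA gene Gm30886 has its window at chr4:22938325-22938624 on the plus strand, with only 1 CpG, and a gap of 517 kb. Mgmt, which encodes the enzyme that repairs O6-methylguanine, has its window at chr7:136894336-136894635 on the plus strand, with 20 CpG, and a gap of 515 kb. The windows of the other 5 genes held 13 or more CpG, while Gm30886 stood apart.
Kdm4c: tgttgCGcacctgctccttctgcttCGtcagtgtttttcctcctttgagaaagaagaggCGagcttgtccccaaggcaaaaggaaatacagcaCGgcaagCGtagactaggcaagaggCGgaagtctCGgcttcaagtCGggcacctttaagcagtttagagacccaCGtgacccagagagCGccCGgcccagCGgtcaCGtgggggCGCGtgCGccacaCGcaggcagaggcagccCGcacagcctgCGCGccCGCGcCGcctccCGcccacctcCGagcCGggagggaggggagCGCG
Zfp317: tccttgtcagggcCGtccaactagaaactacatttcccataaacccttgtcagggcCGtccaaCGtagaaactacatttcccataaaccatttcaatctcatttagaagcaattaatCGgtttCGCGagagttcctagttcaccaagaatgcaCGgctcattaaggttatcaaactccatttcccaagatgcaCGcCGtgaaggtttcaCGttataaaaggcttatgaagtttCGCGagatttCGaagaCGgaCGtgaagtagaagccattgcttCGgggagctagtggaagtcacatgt
Smc2: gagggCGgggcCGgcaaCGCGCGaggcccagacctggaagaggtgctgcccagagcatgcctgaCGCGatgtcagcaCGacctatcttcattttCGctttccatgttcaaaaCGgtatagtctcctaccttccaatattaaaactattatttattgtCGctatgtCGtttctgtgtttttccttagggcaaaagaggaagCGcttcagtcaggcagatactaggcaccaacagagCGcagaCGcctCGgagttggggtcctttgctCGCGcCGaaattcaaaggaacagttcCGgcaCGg
Fbxw17: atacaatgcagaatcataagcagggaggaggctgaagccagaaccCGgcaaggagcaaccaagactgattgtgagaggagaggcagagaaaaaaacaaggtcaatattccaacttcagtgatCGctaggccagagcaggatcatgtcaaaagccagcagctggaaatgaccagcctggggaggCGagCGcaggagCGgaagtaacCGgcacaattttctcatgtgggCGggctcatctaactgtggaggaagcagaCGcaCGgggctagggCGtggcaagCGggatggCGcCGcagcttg
Gm30886: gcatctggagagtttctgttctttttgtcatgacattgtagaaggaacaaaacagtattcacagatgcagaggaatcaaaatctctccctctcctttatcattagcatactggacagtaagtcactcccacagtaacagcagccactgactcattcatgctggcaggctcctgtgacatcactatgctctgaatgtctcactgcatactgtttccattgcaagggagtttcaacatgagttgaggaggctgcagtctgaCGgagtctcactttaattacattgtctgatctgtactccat
Mgmt: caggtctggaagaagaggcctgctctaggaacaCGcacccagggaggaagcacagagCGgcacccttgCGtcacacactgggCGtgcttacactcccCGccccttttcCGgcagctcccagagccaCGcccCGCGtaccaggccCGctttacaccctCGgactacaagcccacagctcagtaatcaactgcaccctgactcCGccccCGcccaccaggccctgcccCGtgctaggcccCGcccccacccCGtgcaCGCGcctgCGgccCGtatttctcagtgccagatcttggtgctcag

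The gap was 147 kb in the median isolated peak, with quartiles of 118 and 213 kb and a range of 100.05 to 1835 kb. The median gap was 5.65 kb among other peaks, so a typical isolated peak was more than an order of magnitude farther from its neighbour. In 55 isolated peaks both flanks ran over 500 kb without a peak, and in 114 at least 1 flank ran over 1000 kb. The first or last peak of a chromosome has a neighbour on 1 side only, which applied to 7 members.

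The most isolated peak, chr19:50603801-50604300, lay inside Sorcs1, which encodes a sorting receptor of the VPS10 family. No peak was listed for 1835 kb on its nearer side and 2400 kb on the other. How mappability varied along the gaps was not tested. The next, chr8:98402801-98403450, was 1308 kb from its nearest neighbour and 178 kb from the nearest gene, the pseudogene Gm7192. A pair on chromosome 1, chr1:101901951-101902600 and chr1:103056801-103057450, faced each other across 1154 kb. The fifth was the Kdm4c promoter peak at chr4:74251451-74252400. None of these 5 peaks held a Smad2/3 site, and only the Kdm4c peak was at a gene start.

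At the threshold the members' gaps differed little from those of the peaks left out. Just inside it were a pair in Npas3, each other's neighbour at 100.05 kb, and a peak in Exoc4 at 100.1 kb. Just outside were a peak in the non-coding gene Gm32009 at 99.95 kb, a peak in Lhfpl3 at 99.9 kb and a peak 35.6 kb from Gm23980 at 99.75 kb.

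**Figure D1:**
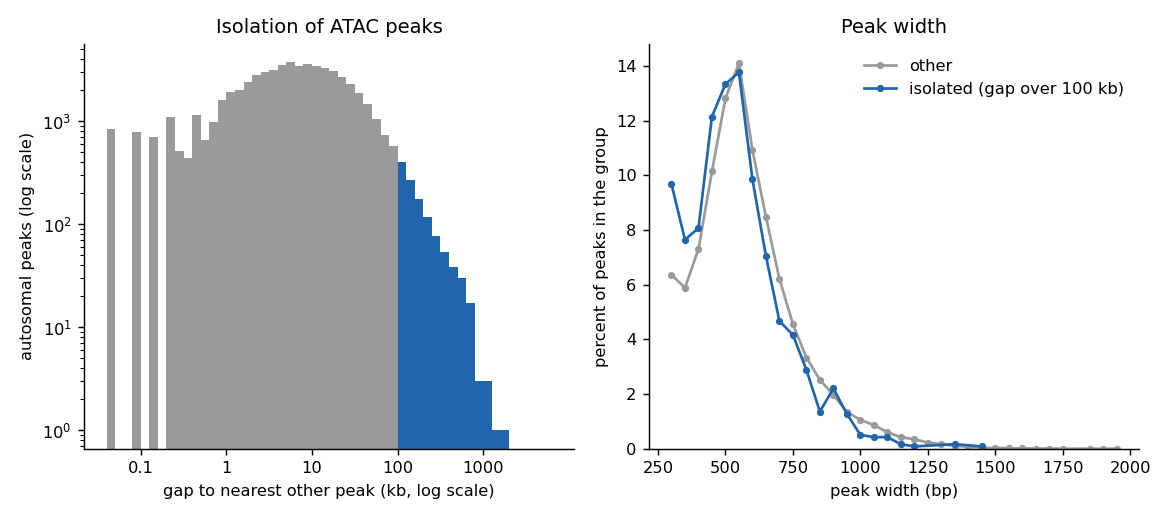
Left, the number of autosomal peaks (log scale) by gap to the nearest other peak in kb (log scale), with isolated peaks in blue. Right, the percent of isolated (blue) and other (grey) peaks at each width in bp. The isolated peaks are the tail of a continuous distribution. More of them lie at the lowest width of 300 bp, 9.69% against 6.37% of other peaks. The empty bins at the left arise because gaps come in steps of 50 bp.

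Isolated peaks were slightly narrower than the rest. Their median width was 500 bp, with quartiles of 400 and 650 bp, against 550 bp with quartiles of 450 and 650 bp for other peaks. This difference is a single step of the 50 bp grid on which the peaks were drawn. At the lowest width of 300 bp lay 114 isolated peaks, or 9.69%, against 6.37% of other peaks, and 1000 bp or more was reached by 22 members, or 1.87%, against 4.02% of other peaks. Peaks at a gene start were wider in both groups, with a median of 650 bp in 96 isolated peaks and 700 bp in 8703 others.

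The widest member, chr1:111863901-111865350 at 1450 bp, lay at the start of Dsel, which encodes a dermatan sulfate epimerase-like protein. The next, both 1350 bp wide, lay at the starts of Mfsd14b, a transporter family gene, and Arl6ip6. All 3 widest members were thus promoter peaks. Of the first 3 in the order of the peak list among the narrowest, at 300 bp, 1 lay 35.4 kb from Sntg1 and 2 in Rims1, a gene of the presynaptic active zone, and the second of those was at a Rims1 start.

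The isolated peaks were spread over every autosome, from 22 on chromosome 19 to 106 on chromosome 1. As a share of a chromosome's peaks they ranged from 1.22% on chromosome 13 and 1.31% on chromosome 19 to 3.21% on chromosome 4 and 3.30% on chromosome 18. They also followed one another along the chromosome. There were 606 members whose next peak on at least 1 side was isolated too, and 571 that stood alone among non-isolated peaks. Those with an isolated neighbour formed 153 runs of 2 and 80 runs of 3 or more.

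The longest run held 13 consecutive isolated peaks over 3.48 Mb at chr15:16613451-20096400, a region whose only protein-coding gene among those nearest to the peaks was Cdh10, a type II cadherin. A run of 8 covered 2.26 Mb at chr12:46930751-49191950 and began beside Nova1, a neuronal splicing regulator. One run of 7 on chromosome 4, chr4:76424751-80311550, had 5 of its peaks in Ptprd, a receptor tyrosine phosphatase gene, and another, chr4:36350801-40015000, had 2 nearest to Lingo2. A run of 6 at chr1:96000701-96872500 ended at Slco4c1. These runs were named for their length, after it was seen.

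Fewer isolated than other peaks lay in or beside genes. A peak is counted inside a gene when the gene body shares at least 1 bp with it. A RefSeq gene body overlapped 518 isolated peaks, or 44.0% (41.1 to 46.9), whereas 66.3% of all autosomal peaks lay inside a gene. A protein-coding gene body overlapped 416 of them, 35.3% (32.6 to 38.2), whereas the share of all autosomal peaks was 57.4%. The nearest protein-coding gene was 72.5 kb away in the median isolated peak, with quartiles of 0 and 343 kb, and the median was 0 kb for other peaks. Within 100 kb of an isolated peak there was a median of 1 protein-coding gene, and 2 near other peaks.

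The kinds of gene nearest to isolated peaks also differed. Protein-coding genes were nearest to 45.5% of members against 71.8% of other peaks, and pseudogenes to 23.1% (20.7 to 25.6) against 6.30%. Long non-coding RNA genes took similar shares, 22.0% (19.7 to 24.5) and 19.5%. Small nucleolar RNA genes were nearest to 3.74% against 0.679%, and small nuclear RNA genes to 3.40% against 0.678%. In all, 1047 different genes were nearest to the 1177 peaks. Where several genes overlapped a peak, a protein-coding gene was taken first, and then the shortest. The shares by kind depend in part on this order, and other orders were not tried.

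The genes that held isolated peaks were long. Their median length was 252 kb, counted over the 518 peaks inside genes, against 63.4 kb over 38975 other peaks. A longer gene can hold a longer stretch without peaks, and no length-matched comparison was made. There were 453 host genes, and in 272 cases the isolated peak was the only autosomal peak in its host gene. Ptprd, 2271 kb long, held 5 isolated peaks among its 7 peaks. Gpc6, which encodes a glypican on the cell surface, held 4 peaks, all of them isolated, over 1055 kb. Npas3, a brain transcription factor gene, held 4 isolated peaks of 6. All 3 peaks of Erbb4, a receptor for neuregulins, and all 3 of Fam135b were isolated. By contrast, 3 of 18 peaks were isolated in Dpp10, 3 of 17 in Astn2 and 3 of 20 in Magi2. These 3 genes, at 1024 to 1514 kb, held more peaks than Ptprd or Gpc6.

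Gene lists showed which families lay nearest. Of the 67 long neuronal adhesion and synapse genes listed, 26 were nearest to 41 isolated peaks, 3.48% (2.51 to 4.70) of members against 1.19% of other peaks. Examples are Csmd3 with a gap of 472 kb, Erbb4 with 444 kb, Tenm2, a teneurin of synaptic adhesion, with 400.5 kb, and the glutamate receptor subunit gene Gria4 with 399 kb. Classical and type II cadherins, which join cells by homophilic contact, were nearest to 12 isolated peaks at 6 genes, 1.02% (0.528 to 1.77) against 0.128%. Cdh12 was nearest to 4 of them, Cdh11 and Cdh18 to 2 each, and Cdh20 to 1. Cdh10, nearest to peaks of the longest run, is also among the 6 genes. Cdh10, Cdh12 and Cdh18 are all on chromosome 15 and account for most of the 12 peaks. These peaks are thus not independent, and the interval for the family is too narrow. The olfactory, vomeronasal and trace amine receptors, which sense odours and pheromones in large gene clusters, were nearest to 17 isolated peaks, 1.44% (0.844 to 2.30) against 0.207%. Of those 17 peaks 4 overlapped a receptor gene or pseudogene. The most isolated of the 17, 975 kb from its neighbour, lay 0.531 kb from the pseudogene Olfr1078-ps1.

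The lists of epidermal genes, of clustered secreted and skin families, and of the TGF-β pathway gave 1 isolated peak each. Keratins and other epidermal genes were nearest to 1 isolated peak, inside Krt10, a keratin of differentiating epidermis, 0.0850% (0.00215 to 0.472) against 0.224% of other peaks. Clustered secreted and skin families, not all of them specific to skin, gave 1 peak, 3.80 kb from Sprr2a3 of the cornified envelope, 0.0850% against 0.228%. The TGF-β pathway list gave 1 peak, in Bambi, a decoy receptor of the TGF-β family, 0.0850% against 0.312%. With a single peak each, these intervals include the shares of the other peaks, and no difference was detectable at this number. Transcription factors of development were nearest to 11 members, among them Ebf1, Tfap2b, Satb1 and Sox5, 0.935% (0.467 to 1.67) against 0.630%, which also lies within the interval.

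Markers of other cells that a tumour can hold were counted in the same way. No isolated peak had a fibroblast, immune, melanocyte or nerve marker as its nearest gene, and 1 lay in the endothelial gene Tek, 0.0850% (0.00215 to 0.472) against 0.0325% of other peaks for the endothelial list. For 0 of 1177 peaks the exact interval reaches 0.313%, above the shares of other peaks (0.0359% fibroblast, 0.0445% immune and 0.0308% melanocyte and nerve).

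**Figure D2:**
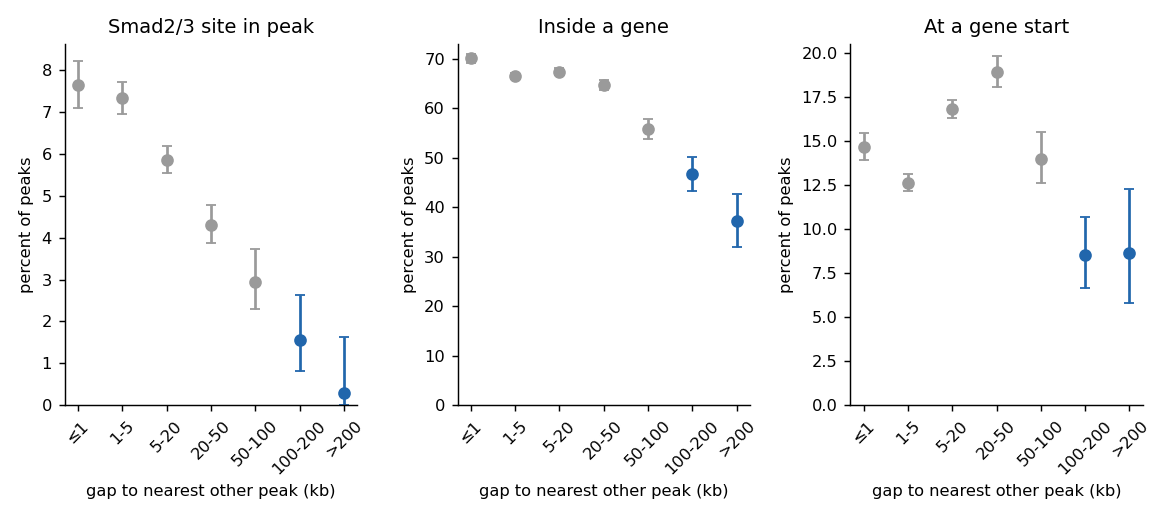
Percent of autosomal peaks with a Smad2/3 site (left), inside a gene (middle) and at a gene start (right) by gap to the nearest other peak in kb. Points are shares and bars exact 95% binomial intervals, and the isolated classes are blue. The Smad2/3 share runs from 7.62% at gaps of 1 kb or less to 0.296% above 200 kb, whereas the gene start share is highest, at 18.9%, between 20 and 50 kb.

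Gene starts were less common among isolated peaks as well. RefSeq promoter windows were available for 18 autosomes, chromosome 18 not being used here. On these, 96 of 1122 isolated peaks overlapped a window, 8.56% (6.99 to 10.3), whereas 15.2% of all autosomal peaks did. The share did not follow the gap evenly. It was 14.7% at gaps of 1 kb or less, 12.6% from 1 to 5 kb, 16.8% from 5 to 20 kb, 18.9% from 20 to 50 kb, 14.0% from 50 to 100 kb, 8.52% from 100 to 200 kb and 8.64% (5.82 to 12.2) above 200 kb. Overlap with gene bodies, in contrast, was 70.1% at gaps of 1 kb or less, between 64.7% and 67.4% from 1 to 50 kb, 55.9% from 50 to 100 kb, 46.7% from 100 to 200 kb and 37.3% above 200 kb.

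The 96 peaks covered 112 windows of 104 genes, and 84 of them were at the start of a protein-coding gene. After the 6 printed above, the largest gaps at gene starts belonged to Gm14305 with 498 kb, 1700010I14Rik with 390 kb, Rims1 with 378 kb and Slco4c1, an organic anion transporter gene, with 352 kb. Then came Fbxl7 with 337 kb, Ufl1, the ligase of the ubiquitin-like modifier UFM1, with 315 kb, Gm7967 with 313 kb, Fhit, a tumour suppressor gene in a fragile site, with 304 kb, and Tlr11, a Toll-like receptor gene, with 295 kb. The neuronal RNA-binding gene Elavl2 had a gap of 293 kb. Gm14410 and Gm14403, next to each other on chromosome 2, both had 291 kb, and Fam172a had 290.05 kb. The Smc2 peak also covered the start of Smc2os, and the Gm30886 peak that of 1700025O08Rik, both transcribed from the other strand. Their windows differed widely in CpG, from 31 in Fbxl7 and 26 in Rims1 to 3 in Gm14305 and 1 in Tlr11.

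In CpG and GC content the promoters in isolated peaks resembled those in other peaks more than those without a peak. The median window held 18 CpG in isolated peaks, with quartiles of 9 and 26, against 22 in 11181 windows of other peaks and 4 in 20103 windows with no peak. GC content had medians of 56.5%, 61.7% and 49.0% in the same order. At least 10 CpG stood in 74.1% (65.0 to 81.9) of the isolated windows, 84.4% of those in other peaks and 21.3% of those without a peak. The isolated promoters were thus mostly CpG-rich, with a lower share than in other peaks. The windows without a peak also differed in kind of gene. Long non-coding RNA genes gave 48.2% of the windows without a peak, but 15.2% of isolated windows and 14.4% of those in other peaks. CpG and GC content were not compared within kinds of gene. How far gene kind accounts for the contrast with windows without a peak was not tested.

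**Figure D3:**
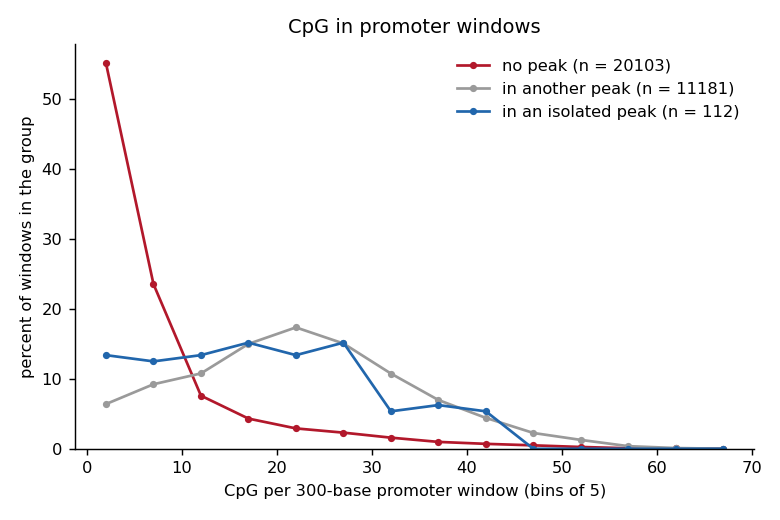
CpG count in RefSeq promoter windows of 300 bases (x axis, bins of 5) against the percent of windows in each group, for windows in isolated peaks (blue), in other peaks (grey) and without a peak (red). The 112 isolated windows have a median of 18 CpG, between 4 without a peak and 22 in other peaks. The groups were not matched for kind of gene.

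Short motifs were counted in the same windows on both strands, each window once, and none of the motifs holds another whole. The Sp1 letters GGGCGG stood in 49.1% (39.5 to 58.7) of isolated windows, 65.8% of windows in other peaks and 36.0% of all 31396 windows. The ETS letters CCGGAA stood in 31.2% (22.8 to 40.7), 29.9% and 15.1% in that order. The CCAAT box letters CCAAT were found in 48.2% (38.7 to 57.9), 39.0% and 37.3%. The NRF1 letters TGCGCA were found in 7.14% (3.13 to 13.6), 14.9% and 7.76%. The shares for Sp1 and NRF1 letters were thus lower in isolated windows than in those of other peaks. For NRF1 this rests on 8 windows. The share of other peaks lay within the interval for the ETS and CCAAT letters. Since some isolated windows overlap each other, all these intervals are too narrow.

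For the remaining motifs the share of other peaks lay within the interval of isolated windows. The letters TGACGTCA of the cAMP response element stood in 6.25% (2.55 to 12.5) of isolated windows, 3.51% of other ones and 1.83% of all. For TATAAA of the TATA box the shares were 7.14%, 6.48% and 13.6%, for CACGTG of the E-box 8.93%, 10.5% and 7.14%, and for GCCATNTT of YY1 10.7%, 8.63% and 6.03%. The AP-1 letters TGANTCA stood in 4.46%, 6.27% and 7.84%. The Smad box letters CAGAC stood in 47.3% of isolated windows, 47.1% of those in other peaks and 49.6% of all, so the presence of these letters hardly varied. A match of letters is not a bound site.

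Smad2/3 sites were rare in isolated peaks. Of the 1177, 14 overlapped a site by at least 1 bp, 1.19% (0.652 to 1.99), whereas 6.15% of all autosomal peaks did. The authors' list gives sites 201 bp long that were bound and held the motif. It comes from cells of SCC1 in culture, while the peaks come from tumours. Each of the 14 peaks held 1 site, and 11 of the sites lay wholly inside the peak. The site centre was a median of 81.5 bp from the peak centre, and between 6.5 and 245.5 bp.

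The share with a site was lower at larger gaps across the whole list. It was 7.62% (7.07 to 8.20) at gaps of 1 kb or less, 7.31% from 1 to 5 kb, 5.85% from 5 to 20 kb, 4.30% from 20 to 50 kb and 2.95% (2.31 to 3.72) from 50 to 100 kb. Among isolated peaks it was 1.55% (0.828 to 2.64) up to 200 kb and 0.296% (0.00749 to 1.64) above, where 1 of 338 peaks had a site. The isolated peaks thus continued an order seen among the other peaks.

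Width was compared because wider peaks held sites more often. Among other peaks the share was 3.60% at 300 to 450 bp, 4.85% at 500 to 550 bp, 7.42% at 600 to 650 bp and 10.1% at 700 bp and over. In isolated peaks it was 1.13% (0.368 to 2.62), 0.940% (0.194 to 2.72), 1.01% (0.122 to 3.58) and 1.84% (0.504 to 4.65) in the same classes. In each of the 4 classes the isolated share lay below that of other peaks of like width, and its interval did not reach it.

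**Figure D4:**
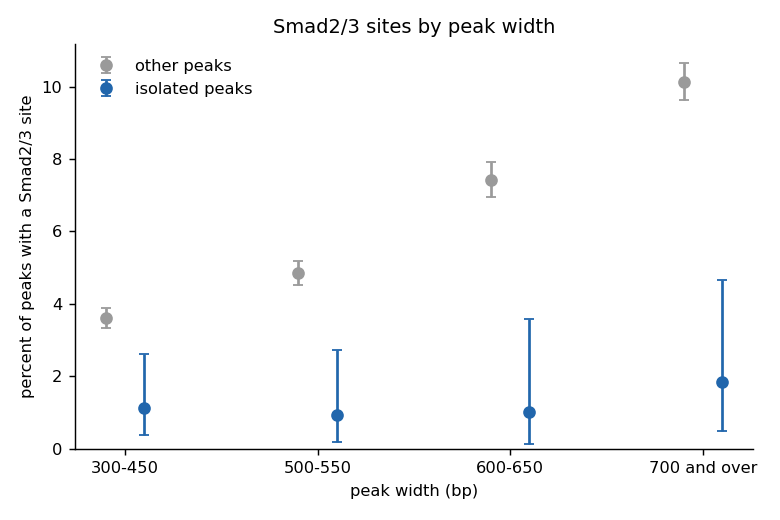
Percent of peaks with a Smad2/3 site (y axis) in 4 classes of peak width in bp (x axis) for isolated (blue) and other (grey) peaks, with exact 95% binomial intervals. Other peaks run from 3.60% to 10.1%, and isolated peaks stay between 0.940% and 1.84%.

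The difference was also present within other strata. Inside genes 9 of 518 isolated peaks had a site, 1.74% (0.797 to 3.27), against 6.28% of other peaks, and outside genes 5 of 659, 0.759% (0.247 to 1.76), against 6.17%. At gene starts it was 1 of 96, 1.04% (0.0264 to 5.67), against 4.19%, which lies within the interval. In regions that SCC1, the tumour of the ChIP, had gained it was 4 of 269, 1.49% (0.407 to 3.76), against 7.17%, and in regions with no call there 10 of 856, 1.17% (0.562 to 2.14), against 5.97%.

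Smad2/3 sites were sparse around the isolated peaks too. The nearest site was 958 kb away in the median isolated peak, with quartiles of 415 and 2040 kb, and 122 kb away in other peaks. No site lay within 1000 kb of 568 isolated peaks, 48.3%, against 13.6% of other peaks. Of 6109 autosomal sites 3663 lay in a peak, and the rule allows no other peak within 100 kb of a member. Apart from a member's own site, any site in a peak was thus about 100 kb or more away. Both contrasts are therefore partly set by the rule. Sites outside any peak numbered 48 in the 227 Mb within 100 kb of an isolated peak, or 0.211 per Mb, against 0.995 per Mb over the autosomes. These flanks hold no other peak by the rule, whereas the autosomes include regions dense in peaks. Peak-free sequence elsewhere was not compared, so the lower density cannot be ascribed to the surroundings of isolated peaks in particular. How Smad2/3 ChIP signal or mappability varied along these regions was not tested.

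The 14 peaks with a site were named in full. The only one with a gap above 200 kb was chr11:89579851-89580250, 372.55 kb from its neighbour, in Ankfn1, and its site shared 92 bp with the peak edge. Of the other peaks in protein-coding genes, chr9:60687751-60688400 was the sole one at a gene start, that of Lrrc49, with a gap of 149 kb. The peak chr4:154269451-154270050 lay in Megf6 with a gap of 108 kb, chr15:57765451-57765900 in Zhx2, a homeobox repressor gene, with 106 kb, and chr9:58131801-58132100 in Stra6, the membrane receptor for vitamin A transport, with 100.2 kb.

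The others counted inside genes overlapped non-coding genes or a pseudogene. They were chr4:84203601-84204150 in Gm33597, chr16:94075451-94075750 in Gm31175, chr17:13542701-13543200 in 2700054A10Rik and chr8:20297201-20297900 over Gm20583, with gaps of 148, 118, 102 and 127 kb. Gm20583 is 0.105 kb long, shorter than its peak of 700 bp. The site in the Gm33597 peak was the best centred, 6.5 bp from the peak centre.

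The last 5 lay outside genes. The peak chr15:62698501-62699050 was 19.4 kb from Gm41333 with a gap of 191 kb, and chr2:153935401-153935800 was 2.40 kb from Bpifb3 with 151 kb. The peak chr8:92488351-92489300 was 127 kb from Irx5, an Iroquois homeobox gene, with a gap of 130 kb. On chromosome 18, chr18:33666951-33667650 was 127 kb from Epb41l4aos with a gap of 122 kb, and chr18:57981351-57982200 was 26.4 kb from Fbn2, which encodes the microfibril protein fibrillin-2, with 102 kb. Of the nearest genes, Stra6 and Epb41l4aos have a ratio in the expression table, described below.

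Copy number was taken from the authors' calls on input DNA, a whole number of copies for each gained or lost region. In SCC1, 269 isolated peaks lay in a gain, 22.9% (20.5 to 25.4), whereas 31.6% of all autosomal peaks did, and gains covered 29.3% of autosomal length. In SCC2, 251 lay in a gain, 21.3% (19.0 to 23.8), whereas the background was 31.5% of peaks and 28.5% of length. Isolated peaks were thus rarer in gains than other peaks in both tumours, and rarer than by length. Gained in both tumours were 165 members, 14.0% (12.1 to 16.1), against 23.1% of other peaks, and 750 members, 63.7%, had no call in either, against 55.9%. Whole chromosomes weighed in these counts. All 60 isolated peaks of chromosome 10 and all 22 of chromosome 19 lay in a SCC2 gain, and 40 of the 50 on chromosome 11 in a SCC1 gain. The tumours are 2, gains are long, and 1 gain takes many neighbouring peaks together, so these intervals are too narrow as a measure of variation between tumours.

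Losses were few. In SCC1, 52 isolated peaks lay in a loss, 4.42% (3.32 to 5.75), whereas 2.45% of all autosomal peaks did. Of these 52, 45 were on chromosome 14, where 73.8% (60.9 to 84.2) of 61 isolated peaks and 52.3% of other peaks were in a loss. On the other chromosomes together the shares were 0.627% (0.253 to 1.29) and 0.342%. The SCC1 value thus rested on chromosome 14. In SCC2, 34 lay in a loss, 2.89% (2.01 to 4.01), whereas the background was 2.03%, which lies within the interval, and 12 of the 34 were on chromosome 14. In SCC1 and SCC2 losses covered 3.75% and 3.17% of autosomal length, both within the intervals of the isolated peaks.

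Most gained members had 3 copies, 215 in SCC1 and 240 in SCC2. A level of 4 copies was called at 49 in SCC1 and 11 in SCC2, and 5 or more at 5 in SCC1 and at none in SCC2. The highest was a peak in Lin7a, chr10:107389501-107390000, with 8 copies in SCC1 and 3 in SCC2. The other 4 members at this level tied at 5 copies. Ties are named in the order of the peak list, which places chromosomes 10 to 19 directly after chromosome 1. The first of them in list order were the peak at the start of Fancl, a Fanconi anaemia ubiquitin ligase gene, and a peak 103 kb from Gm25387, each with 5 copies in SCC1 and 3 in SCC2. In SCC2 the first with 4 copies in list order lay at Olfr1542-ps1, Ppp6r3 and Pcx, where SCC1 had 4, 3 and 3. A loss in both tumours was called at 12 members, 1.02% (0.528 to 1.77), against 0.577% of other peaks. The first of these 12 in list order were the peaks in Spata17 and in Esrrg, an orphan nuclear receptor gene, on chromosome 1, and at the start of 3830406C13Rik on chromosome 14. The peak nearest Gm40666 on chromosome 13 had 1 copy in SCC2 and no call in SCC1.

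**Figure D5:**
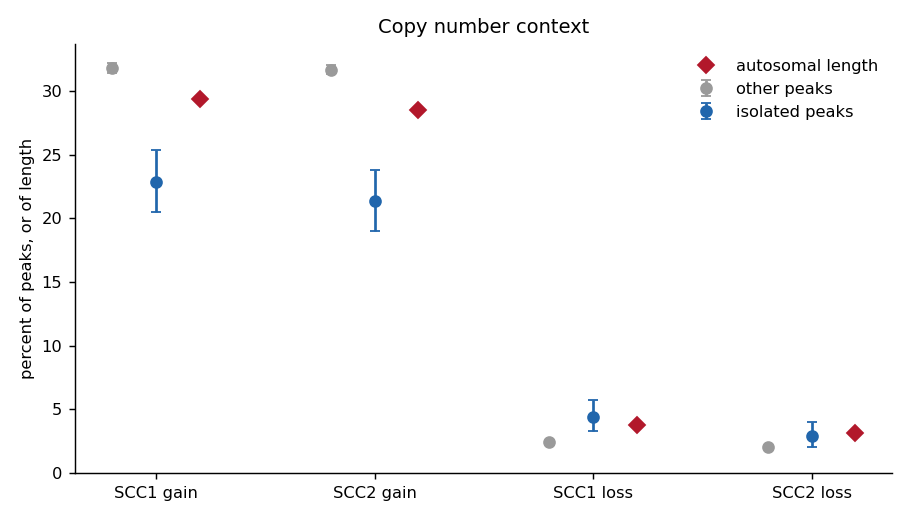
Percent of isolated (blue) and other (grey) peaks in the authors' gains and losses of SCC1 and SCC2, with exact 95% binomial intervals, and the percent of autosomal length in the same calls (red diamonds, no error). In gains the isolated peaks stand at 22.9% and 21.3%, below other peaks at 31.8% and 31.7%.

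Expression was examined at the genes nearest to isolated peaks. The authors' deposited table gives log2 ratios of quiescent over proliferative cells for selected genes, with 1 ratio for each tumour and no level or replicate. Of the genes nearest to isolated peaks, 1.72% have a ratio there, against 6.48% of the genes nearest to other peaks. These are 18 genes at 20 peaks. The 2 shares cover genes of unlike kinds, since protein-coding genes were nearest to 45.5% of isolated and 71.8% of other peaks, and pseudogenes to 23.1% and 6.30%. The shares were not compared within protein-coding genes. In both tumours 7 of the 18 had ratios above 0 and 10 below, while Gm19757 differed in sign. In the authors' deposited table as a whole, the quiescent cells of SCC1 and SCC2 alike had a higher level of 35.9% of 1600 matched genes and a lower level of 52.2%, and the 38.9% and 55.6% of the 18 genes were close to that background. The median ratio of the 18 was -0.33 in SCC1 and -0.43 in SCC2, against -0.61 and -0.49 over the table.

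Among genes lower in quiescent cells, Cip2a, an inhibitor of the phosphatase PP2A, had log2 ratios in the authors' deposited table of -3.08 for SCC1 and -2.19 for SCC2. Smc2 had -3.63 and -1.91 in the same table, and its start lies in the printed window. The zinc finger gene Zfp808 had -1.95 and -1.18 in the authors' deposited table, and Adk, which encodes adenosine kinase and holds 2 isolated peaks, -0.96 and -0.79. The isolated peaks of Cip2a, Smc2 and Zfp808 lay at the gene start, and those of Adk inside the gene body away from a start. The Cip2a peak also covered the start of the protein-coding gene Dzip3 on the other strand, so it is not a peak of Cip2a alone.

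Among genes higher in quiescent cells, Bambi had log2 ratios in the authors' deposited table of 1.13 for SCC1 and 2.82 for SCC2. Pcdh9, a protocadherin gene 180 kb from its isolated peak, had 2.30 and 1.36 there, and Cpq, a carboxypeptidase gene with 2 isolated peaks, 1.82 and 1.05. Cdh13, an atypical cadherin, had 1.39 and 1.03 in the authors' deposited table, Epb41l4aos 0.81 and 1.35, and Pappa, a protease of IGF-binding proteins, 0.76 and 0.85. Epb41l4aos lies 127 kb from an isolated peak with a Smad2/3 site. None of the peaks of these 6 genes was counted at a gene start, but Bambi and Epb41l4aos are on chromosome 18, where starts were not used here.

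The double negative over proliferative ratios in the authors' deposited table share the proliferative libraries with the ratios above. They were -2.62 and -3.06 for Cip2a, -3.02 and -2.94 for Smc2, 1.28 and 1.96 for Bambi, and 1.69 and 1.78 for Pcdh9, in SCC1 and SCC2 in that order. Stra6, which holds an isolated peak with a Smad2/3 site, had quiescent over proliferative ratios of -0.16 and -1.65 and double negative over proliferative ratios of 1.05 and -0.92 in the authors' deposited table. In Stra6 the double negative ratios thus differed in sign between the tumours. Whether an isolated peak acts on its nearest gene was not tested.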

How the data were processed

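ATAC libraries were aligned to mm10 with Bowtie, and ChIP and input libraries with Bowtie and Picard 1.88, per the submitters' processing notes. No source used here names the callers of peaks, motifs and copy number. The authors deposited merged ATAC peaks and Smad2/3 sites as positions with no signal or depth, and a copy number table with a p-value for each call. The log2 ratios were deposited by the authors, and TopHat2 2.0.9, Cufflinks 2.2.0 and Cuffdiff 2.2.0 with mm10 (also mm9 for double negative cells) are named in the submitters' processing notes. The log base is not stated in the table and was taken as 2 from the usual Cuffdiff output. No source used here gives the rule by which genes entered that table, and the depth behind each ratio is unknown.

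Gaps, overlaps of at least 1 bp and distances were computed in Python 3.11.15 with numpy 2.4.6, pandas 2.3.3 and scipy 1.17.1, and figures were drawn with matplotlib 3.10.9. Coordinates are 1-based. Genes and promoter windows came from RefSeq on GRCm38.p6, the assembly of mm10. Of 1609 table genes 1600 matched, 1492 by symbol and 108 by synonym. Gene starts were counted on 18 autosomes, since windows of chromosome 18 were not used here. Interval functions were tested on simulated data with known gaps and overlaps and returned every one.

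Members and lists were chosen with earlier results of these data known. Named regions and genes follow a rule: the 5 largest gaps, 3 peaks on either side of the threshold, the 3 widest and narrowest, all peaks with a Smad2/3 site, the 20 gene start peaks with the largest gaps (promoters of 6; 1 of the 20 is not reported here), 10 genes with the largest ratios of like sign, the 3 peaks with most and fewest copies per tumour, and up to 4 examples per list. The host genes with most isolated peaks, the longest runs and Stra6 were named after their values were seen. Mutation calls were not used here.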

Additional observations from a re-analysis of the deposited data

How the results depend on the processing

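The 11 main values were recomputed under 57 alternatives, of which 36 left the value within 1.5 times (counts) or within its exact 95% interval (shares and median width) and 21 did not. Most of the latter came from the gap threshold. With a gap of more than 50 kb there were 3548 isolated peaks, 2.37% with a Smad2/3 site, 52.0% inside a gene, 414 at a gene start, 25.7% in a SCC1 gain and 26.1% in a SCC2 gain, and quiescent cells had 27 nearest genes higher and 63 lower. With a gap of more than 200 kb there were 338, 0.296% with a site, 37.3% inside a gene, 28 at a gene start and 16.9% in a SCC2 gain, and 0 nearest genes higher and 2 lower. Inside protein-coding genes only lay 35.3%, and 55.2% lay inside a gene body widened by 10 kb. Ratios of 1 or more in size in both tumours left 4 higher and 3 lower genes, and the nearest protein-coding gene gave 15 higher and 24 lower. Taking SCC1 or SCC2 alone gave 7 to 8 higher and 10 to 11 lower genes. The share with a Smad2/3 site stayed between 0.935% and 1.68% under the other definitions of gap and overlap, and a margin of 1 kb around the peaks added no site. No paired analysis was possible because the ratios are already taken within each tumour, with no levels from which to fit the populations with and without a block, and the other values come from no test. Positions carry no depth, so weakly open peaks cannot be told from strong ones, and 14 peaks with a site limit the precision of any split by Smad2/3.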
